A study of Rattus norvegicus with 5 samples.

Results

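The genes described here encode ribosomal proteins, translation initiation factors and translation elongation factors, with the kinases, binding proteins and methyltransferases named after these factors. They were chosen by gene symbol alone. A probe set entered where the platform annotation lists it under 1 symbol that begins with Rpl, Rps and a digit, Eif and a digit, or Eef and a digit, and the S6 kinase genes were left out. The rule found 145 probe sets of 107 genes, out of 20826 probe sets of 14217 genes that carry 1 symbol. Of the 107 genes, 41 encode ribosomal proteins and 6 encode paralogs of them, while 41 encode initiation factors and 8 encode kinases or binding proteins of these factors. The remaining members are 7 genes grouped as elongation factors by their symbols and 4 genes for enzymes that modify elongation factors. A gene with several probe sets was given their mean.

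The arrays came from 5 cell populations of wild type male Sprague-Dawley rats aged 5 weeks, with no treatment in any group. Cells of the mandibular condylar cartilage (MCC) were captured by laser from frozen sections of 7 µm, zone by zone from the surface down: fibrous (FZ), proliferative (PZ), then the zone of mature chondrocytes (MZ) and that of hypertrophic chondrocytes (HZ). Cells from the middle and deep layers of femoral condylar cartilage (FCC) were the control tissue. Lysates of pooled sections made 1 array for each group (30 sections for each group in the labels, whereas the methods pool more for FZ), so differences have no replicate check and are given as a description, with neither a test nor a p-value.

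Markers of the captured tissues followed the labels only in part. Of 14 hyaline cartilage markers, 8 in PZ, 9 in MZ, 10 in HZ and 11 in FZ were at least 1 lower than in FCC. Of 11 fibrous tissue markers, 8 were at least 1 higher in FZ and PZ than in MZ and HZ, and 5 of 9 hypertrophy markers were at least 1 lower there. The hypertrophy list did not separate HZ from MZ, since 1 of the 9 was at least 1 higher in MZ and none was lower, with a list median of 0.19.

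Each value is a log2 value relative to the median of its probe set over the 5 arrays, and it holds differences between arrays but no expression level. A log2 difference of 1 is 2-fold, and a difference of at least 1 was used for counting. The nearest stand-in for a replicate error was the spread between probe sets of the same gene. Among the 29 members with several probe sets, the SD of the difference between PZ and the mean of the other arrays had a median of 0.42, and that of MZ against HZ had a median of 0.09. In bulk RNA of captured cells, fewer cells of a type and less RNA in each cell cannot be told apart.

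The ribosome is built from a small and a large subunit, each a scaffold of ribosomal RNA covered by ribosomal proteins. Initiation factors bring the small subunit, the initiator tRNA and the capped mRNA together, and elongation factors deliver aminoacyl-tRNA and move the ribosome along the mRNA. Growth signals through mTOR act on this machinery by releasing the cap-binding factor eIF4E from its binding proteins. Stress signals act through kinases that phosphorylate eIF2. Many mRNAs of ribosomal proteins and elongation factors begin with a run of pyrimidines, the terminal oligopyrimidine (TOP) tract, which couples their translation to growth. Chondrocytes that divide or lay down matrix make large amounts of protein, which makes the translation machinery of interest along the zones of a growth cartilage.

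The sequences around the annotated transcription start of some of these genes are shown first, because a shared TOP tract is a known feature of the family that the choice by symbol did not use. RefSeq promoter windows on the build GRCr8 (250 bases before the start and 50 after it) were matched for 97 of the 107 genes by gene ID or symbol. An unbroken run of at least 5 C or T bases that came within 5 bases of the annotated start was searched on the strand of the gene. Each line below gives 15 bases before the start and the first 15 bases of the transcript, 5′ to 3′, with the pyrimidine run in capitals. The first 5 are the ribosomal protein genes with a promoter entry that were lowest in PZ, and the next 5 are those nearest to 0 in PZ.
Rps15a, chr1:181860270-181860299, minus strand: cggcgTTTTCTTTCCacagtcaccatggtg
Rps9, chr1:74430423-74430452, minus strand: tccggcggccacgTTTCTCTTTgtcacggg
Rps15, chr7:10068101-10068130, minus strand: cgctgacaccgCTTCCTTTTCCCagcagcc
Rplp0, chr12:46718376-46718405, minus strand: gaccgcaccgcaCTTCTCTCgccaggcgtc
Rpl6, chr12:41011676-41011705, minus strand: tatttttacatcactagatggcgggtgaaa
Rpl14, chr8:129163605-129163634, plus strand: gggcgggCCCTCTCCCTTCTCgctgagcgc
Rps13, chr1:180009646-180009675, minus strand: gccgtttcctacctcgTTCTCTCTTTgctt
Rpl37a, chr9:81748076-81748105, plus strand: gcatgcccgttgcgTCTCTTCCTCTTCggg
Rpl22, chr5:168117946-168117975, plus strand: gtagtgcgCCCCCCTCCCTTTCTgcctcct
Rpl35, chr3:43165907-43165936, minus strand: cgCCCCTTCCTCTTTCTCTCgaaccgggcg

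A run was found in 26 of 36 ribosomal protein promoters (72.2%), in 4 of 6 elongation factor promoters (66.7%) and in 14 of 38 initiation factor promoters (36.8%). Of all 33469 promoters in the table, 30.8% held one. On the other strand, where the run reads as A or G, it was found in 13.9% of the ribosomal protein promoters and 36.1% of all promoters. The run was present both in genes that were low in PZ and in genes that were not. It was found for 5 of 8 ribosomal protein genes at least 1 lower in PZ (62.5%) and for 21 of the other 28 (75%). In the lines above, Rps15a, Rps9, Rps15 and Rplp0 have a run, as have all 5 genes near 0, and Rpl6 has none within 5 bases of its annotated start. The annotated start can lie some bases away from the start used in cartilage.

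Ribosomal proteins were nearly level across FCC, FZ, MZ and HZ. For the 41 genes, the range over these 4 arrays had a median of 0.12 on the log2 scale, against 0.45 for all 14217 genes. The range was under 0.5 for 39 of the 41 genes (95.1%) and for 54.6% of all genes. Rpl35, a large subunit protein, had −0.01 in MZ and 0.00 in FCC, FZ and HZ. Rpl22, an RNA-binding protein of the large subunit, had −0.02 in FCC and 0.00 in the other 3. The widest range was that of Rps13, a small subunit protein, from −0.51 in FZ to 0.38 in MZ, with −0.16 in FCC and 0.13 in HZ. An entry that the annotation shares between Rps13 and its copies had 0.00 to 0.06 in these 4 arrays, so this range depends on the probe set. Because the values hold no level, signals near the upper limit of the scanner, where differences shrink, could not be looked for.

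**Figure D1:**
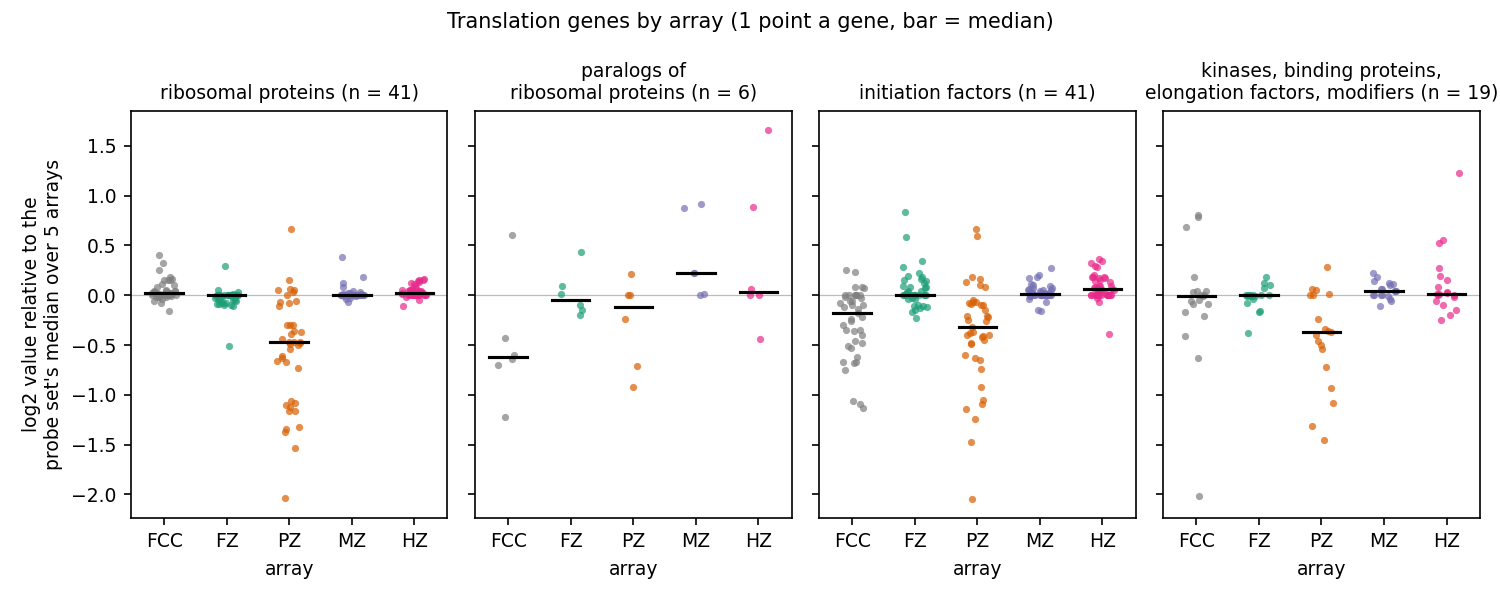
Log2 values relative to the median of 5 arrays (y axis) for the 107 genes by array (x axis), in 4 groups of genes. Each point is 1 gene and each bar a median. The ribosomal proteins lie close to 0 in 4 arrays and spread from −2.04 to 0.67 in PZ, and the initiation factors also reach down in FCC.

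In the proliferative zone, many ribosomal protein genes were lower than in every other population. PZ held the lowest of the 5 values for 34 of the 41 genes (82.9%), and for 24.8% of all genes. Against the mean of the other 4 arrays, 11 of the 41 were at least 1 lower in PZ and none was at least 1 higher, where 5.54% of all genes were lower and 1.31% were higher. The median difference of the ribosomal proteins was −0.49, and that of all genes was 0.00. These counts rest on a single PZ array.

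The difference was uneven among proteins that enter the ribosome in equal numbers. The small subunit had 6 of 12 members at least 1 lower in PZ, beside 5.54% of all genes, with a median difference of −0.78. Of these, Rps24 rests on a mean of probe sets with differences of −2.26 and −0.03. Rps15a, a core protein of this subunit, had 0.00 in FZ, −2.04 in PZ, 0.00 in MZ, 0.03 in HZ and 0.04 in FCC. PZ alone stands apart there, 2.06 under the mean of the other 4 arrays. Rps9 had −0.02 in FZ, −1.53 in PZ, 0.00 in MZ, 0.15 in HZ and 0.01 in FCC. Rps15 had −1.37 in PZ and between 0.00 and 0.09 in the other arrays. Rps3, which lies at the mRNA entry channel, had −1.08 in PZ and 0.00 to 0.18 elsewhere, and Rps29 had −1.06 in PZ and −0.02 to 0.04 elsewhere. Rps6, the substrate of S6 kinase, had −0.50 in PZ where the rest had −0.01 to 0.02, and Rps3a, Rps16 and Rps28 were close to it at −0.47, −0.47 and −0.48. Rps23, a protein of the decoding centre, had −0.11 in PZ, and Rps13 had 0.00, where its shared entry had −0.24.

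Of the large subunit proteins, 4 of 28 were at least 1 lower in PZ, again beside 5.54% of all genes, with a median difference of −0.41. Rpl23a, which lies at the exit of the peptide tunnel, had −0.08 in FZ, −1.34 in PZ, 0.00 in MZ, 0.04 in HZ and 0.03 in FCC. Rpl7, Rpl6 and Rpl11 had −1.10, −1.16 and −1.16 in PZ. Rpl11 and its partner Rpl5 bind the 5S ribosomal RNA, and Rpl5 had −0.61 in PZ. Rplp0, the base of the acidic stalk that recruits elongation factors, had 0.00 in FCC, FZ and MZ, 0.16 in HZ and −1.32 in PZ. No ribosomal protein lay between −0.74, the difference of Rpl12, and −1.07, that of Rps29, so the size of 1 used for counting falls in a gap.

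A set of large subunit genes did not share the difference. In PZ, Rpl22 had 0.05, Rpl27 had 0.03, Rpl35a had 0.06, Rpl35 had −0.08, Rpl37a had −0.06 and Rpl34 had −0.07. Among the large subunit genes not yet named, values in PZ ran from −0.67 to −0.30, apart from Rpl14 with 0.05 and Rpl30 with 0.15. The value of Rpl14 is a mean of probe sets at −0.22 and 0.33, so it describes neither. An entry shared by Rpl30 and its copies had −0.45 in PZ, so the value of Rpl30 also depends on the probe set. Rpl28 ran the other way, with 0.67 in PZ and −0.07 to 0.15 in the other arrays. A separate Rpl28 probe set that the annotation shares with related entries read −0.42 in PZ, so the direction of Rpl28 depends on the probe set.

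**Figure D2:**
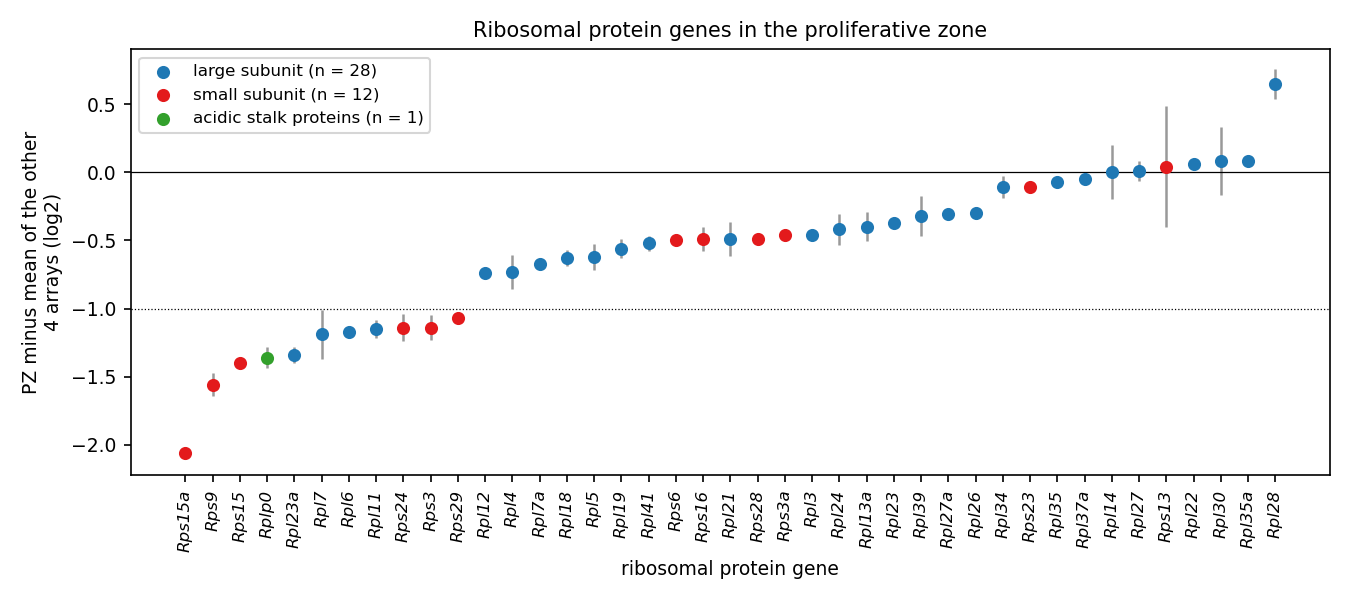
Difference between PZ and the mean of the other 4 arrays (y axis, log2) for the 41 ribosomal protein genes (x axis), coloured by subunit. Each grey line has the length of the range over the other 4 arrays, centred on the point, and the dotted line marks −1. Rps15a is lowest at −2.06, 11 genes lie under the dotted line and Rpl28 is highest at 0.65.

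The annotation lists 41 further probe sets under several symbols of which at least 1 meets the name rule, mostly a ribosomal protein gene together with its pseudogenes or copies. These probe sets were not members. They give a reading of other proteins of the ribosome on the same arrays, and a further reading of some members, among them Rps13, Rpl28 and Rpl30. Of the 36 for ribosomal proteins, 8 were at least 1 lower in PZ than the mean of the other arrays, beside 5.54% of all genes, with a median of −0.53. Some genes hold more than 1 entry, such as Rpl36a with differences of −1.39 and −0.55, so 36 is not a count of proteins. The entry that holds Rpl13 had 0.42 in FZ, −1.80 in PZ, 0.00 in MZ, 0.19 in HZ and −0.05 in FCC. The entry that holds Rpl17 had −1.74 in PZ and −0.05 to 0.06 elsewhere. The entry for the stalk protein Rplp1 had −1.17 in PZ, beside the −1.32 of Rplp0. Among the entries at least 1 lower, those of the small subunit were Rps12 and Rps4x, with differences of −1.15 and −1.14. The others belong to the large subunit or its stalk, so the larger share of the small subunit among the members was not seen in these entries. Others were level, among them those that hold Rps26 with 0.03, Rpl38 with 0.09 and Rpl32 with 0.14 in PZ. Signals of a gene and of its near-identical copies cannot be told apart in these entries.

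The Gapdh measure of RNA integrity also stood apart in PZ, through a low 3′ end, while the beta-actin measure did not. The control probe sets for the 5′ end of Gapdh minus those for its 3′ end read 1.36 in PZ and −0.21 to 0.27 in the other arrays, and the 3′ probe set of Gapdh alone read −1.46 in PZ. The same measure for beta-actin read 0.14 in both PZ and FZ and 1.24 in FCC, where its 3′ probe set read −1.76. Markers of blood were low in PZ as well. Of 9 erythroid markers 7 were at least 1 lower there (list median −1.52, from −2.62 to −0.54), and of 13 leukocyte markers 8 were (list median −1.03, from −2.31 to −0.06). The fibrous tissue list had 4 of 11 markers at least 1 higher in PZ and 1 lower, and the hyaline cartilage list had 3 of 14 higher and 2 lower. Of all genes, 1.31% were at least 1 higher in PZ and 5.54% were lower. The part of these measures and markers in the low values of the ribosomal proteins was not tested.

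Initiation factors were also lower in PZ, but a smaller share of them. Of the 41 genes, 5 were at least 1 lower and none was at least 1 higher, where 5.54% of all genes were lower and 1.31% were higher, and their median was −0.27. Eif3m, a subunit of the eIF3 complex that binds the small subunit, had −0.04 in FZ, −2.05 in PZ, 0.01 in MZ, 0.00 in HZ and 0.07 in FCC. It had the same difference as Rps15a, −2.06. Eif4a3, the RNA helicase of the exon junction complex, had −1.47 in PZ and 0.00 to 0.09 elsewhere. Eif2s3, the gamma subunit of eIF2, had −1.24 in PZ and −0.15 to 0.08 elsewhere, but an entry that the annotation shares with Eif2s3y had −0.01 in PZ, so its low value depends on the probe set. Eif1ax, which helps scanning for the start codon, had −1.05 in PZ and −0.22 to 0.07 elsewhere, and Eif3l had −1.09 in PZ and −0.23 to 0.18 elsewhere. Differences of the other initiation factors ran from −0.97, that of Eif3c, to 0.71, that of Eif2a.

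The subunits of a complex had unlike values in PZ. In the eIF2 complex, PZ values were −1.24 for Eif2s3, −0.26 for Eif2s2 and 0.13 for Eif2s1, the alpha subunit that the stress kinases phosphorylate. With the shared entry of Eif2s3, at −0.01 in PZ, Eif2s3 would not stand apart from the other subunits. Within eIF3, Eif3m and Eif3c had −2.05 and −1.14 in PZ, while Eif3f had 0.18 and Eif3j had 0.10. All 5 subunits of eIF2B, the exchange factor that recharges eIF2 with GTP, lay under the mean of the other arrays in PZ, with differences of −0.17 to −0.66. The cap-binding protein Eif4e had −0.10 in PZ and the scaffold Eif4g1 had 0.08. Higher in PZ were Eif2a, a factor that can deliver initiator tRNA in place of eIF2, with 0.67 where the rest had −0.15 to 0.00, and Eif5a2, described below.

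Proteins that hold initiation in check included some of the lowest values in PZ. Eif4enif1, which carries eIF4E into the nucleus and to processing bodies, had −1.45 in PZ and −0.01 to 0.11 in the other arrays. Eif4ebp1, the mTOR-controlled repressor of eIF4E, had 0.10 in FZ, −1.31 in PZ, 0.04 in MZ, −0.06 in HZ and 0.00 in FCC. Its relative Eif4ebp2 had 0.28 in PZ, and Eif4ebp3 had 0.00. None of the 7 elongation factor genes was at least 1 lower in PZ as a mean of its probe sets, beside 5.54% of all genes, and their median difference was −0.41. Single probe sets of Eef2 and Eef1a1 did reach that size, with differences of −1.42 and −1.05. The lowest genes were Eef1d, part of the exchange factor of eEF1A, with −0.93 in PZ and −0.09 to 0.07 elsewhere, and Eef1a1, the main carrier of aminoacyl-tRNA, with −0.72 and −0.01 to 0.04 elsewhere. Eef1b2, Eef1g and Eef1e1 had −0.40, −0.36 and −0.37, and the muscle and nerve form Eef1a2 had 0.05. The value of Eef1a1 is a mean of probe sets at −1.05 and −0.39 in PZ. That of Eef1g is a mean of probe sets at −0.93 and 0.20, and Eef1e1 was grouped here by its symbol alone.

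Probe sets of the same gene gave different answers for several of these genes. Rps24, a small subunit protein, had 2 probe sets with PZ values of −2.25 and 0.00, so its mean of −1.12 describes neither. Eef2, which moves the ribosome by 1 codon, had −1.33 and 0.41 in PZ. Eif2ak1 had −1.92 and −0.24, Eif3l had −1.76 and −0.41, and Eif3c had −1.63 and −0.65. Eif1a had 4 probe sets whose differences ran from −0.81 to 0.76. In contrast, the 2 probe sets of Rpl7 both were low in PZ, at −1.04 and −1.16. A gap of at least 1 between probe sets was seen in 8 of the 29 genes for PZ against the other arrays and in none for MZ against HZ. Counting each probe set once, 24 of 145 were at least 1 lower in PZ, and the share of all probe sets was not computed.

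**Figure D3:**
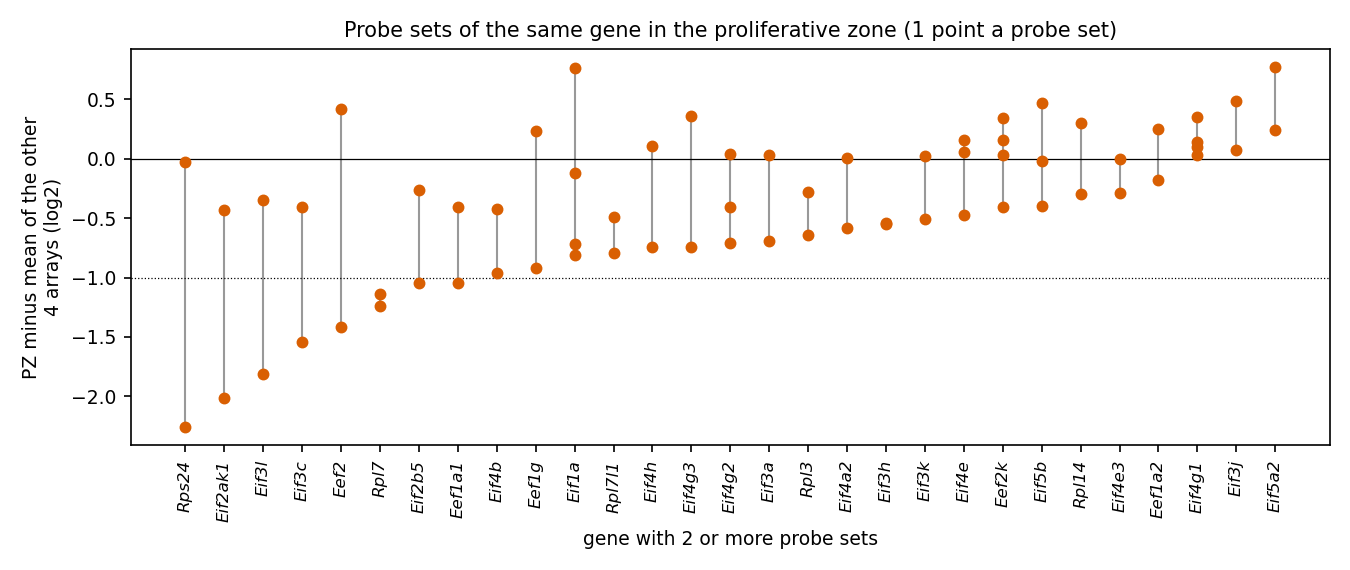
Difference between PZ and the mean of the other 4 arrays (y axis, log2) for the probe sets of the 29 genes with more than 1 (x axis). Each point is 1 probe set, grey lines join those of a gene, and the dotted line marks −1. The pair for Rps24 spans −2.26 to −0.03, while both for Rpl7 lie under −1.

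The direct comparison of the superficial zones gave the same genes the reverse sign, and it shares the PZ array with the differences above. For FZ against PZ, 21 of the 107 members were at least 1 higher in FZ and none was at least 1 lower, where 6.1% of all genes were higher and 1.12% were lower. The highest were Rps15a with a difference of 2.04, Eif3m with 2.01 and Eif4a3 with 1.55. The lowest was Rpl28 with −0.74. The median over the members was 0.41.

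Against the femoral cartilage, the ribosomal proteins of FZ, MZ and HZ did not stand apart, and the members that did were factors and paralogs. None of the 41 ribosomal proteins differed from FCC by at least 1 in FZ, MZ or HZ, while 11 were at least 1 lower in PZ. Over all members, 6 were at least 1 higher in FZ, 6 in MZ and 7 in HZ, where 5.69%, 6.98% and 8.09% of all genes were. Lower by at least 1 were no member in FZ or MZ and 1 in HZ, against 4.21%, 4.74% and 5.98% of all genes. For PZ against FCC, 2 members were higher and 19 were lower, with 4.65% and 7.49% of all genes. Apart from PZ, these shares were near or under the background. The counts of higher members depend on the scaling. With the arrays shifted to equal hybridization controls they became 25 in FZ, 23 in MZ and 23 in HZ, as the medians of the members moved to 0.66, 0.56 and 0.60 and those of all genes to 0.66, 0.55 and 0.52. The share of all genes at that scaling was not computed.

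Initiation factors tended to be lower in FCC, most of them by less than 1. Of the 41 genes, 9 were at least 0.5 higher than FCC in each of FZ, MZ and HZ (22%) and none was at least 0.5 lower in each. For all genes, 11% and 7.48% met these conditions. The median differences of the initiation factors from FCC were 0.30 in FZ, 0.22 in MZ and 0.27 in HZ, where those of all genes were 0.02, 0.03 and 0.00. Such medians were not particular to initiation factors. They were 0.30, 0.39 and 0.32 for ribosome biogenesis genes and 0.37, 0.31 and 0.29 for mitochondrial ribosomal proteins. For genes of the mTOR pathway they were 0.11, 0.02 and −0.08. FCC held the lowest of the 5 values for 34.1% of the initiation factors and 28.8% of all genes. The 9 initiation factor genes at least 0.5 higher were Eif2b2, Eif2s1, Eif3a, Eif3b, Eif3c, Eif3d, Eif3j, Eif4e2 and Eif5a, so 5 of the 11 measured eIF3 subunits were among them.

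Within that group, Eif5a, the hypusine-bearing factor that helps ribosomes past difficult peptide bonds, had 0.14 in FZ, −0.45 in PZ, 0.00 in MZ, 0.28 in HZ and −1.13 in FCC. Eif4e2, a cap-binding protein that can repress translation, had 0.19 in FZ, −0.32 in PZ, 0.03 in MZ, 0.00 in HZ and −1.09 in FCC. FCC was the lowest array for both. Eif3c, a core eIF3 subunit, had −1.06 in FCC and −1.14 in PZ, and the other 3 arrays had 0.00 to 0.36. Its probe sets shared the direction in FCC, at −0.52 and −1.60. Eif3a, the largest eIF3 subunit, had −0.68 in FCC, from probe sets at −0.36 and −1.01. The beta-actin values given above also set the FCC array apart, and their part in these differences was not tested.

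**Figure D4:**
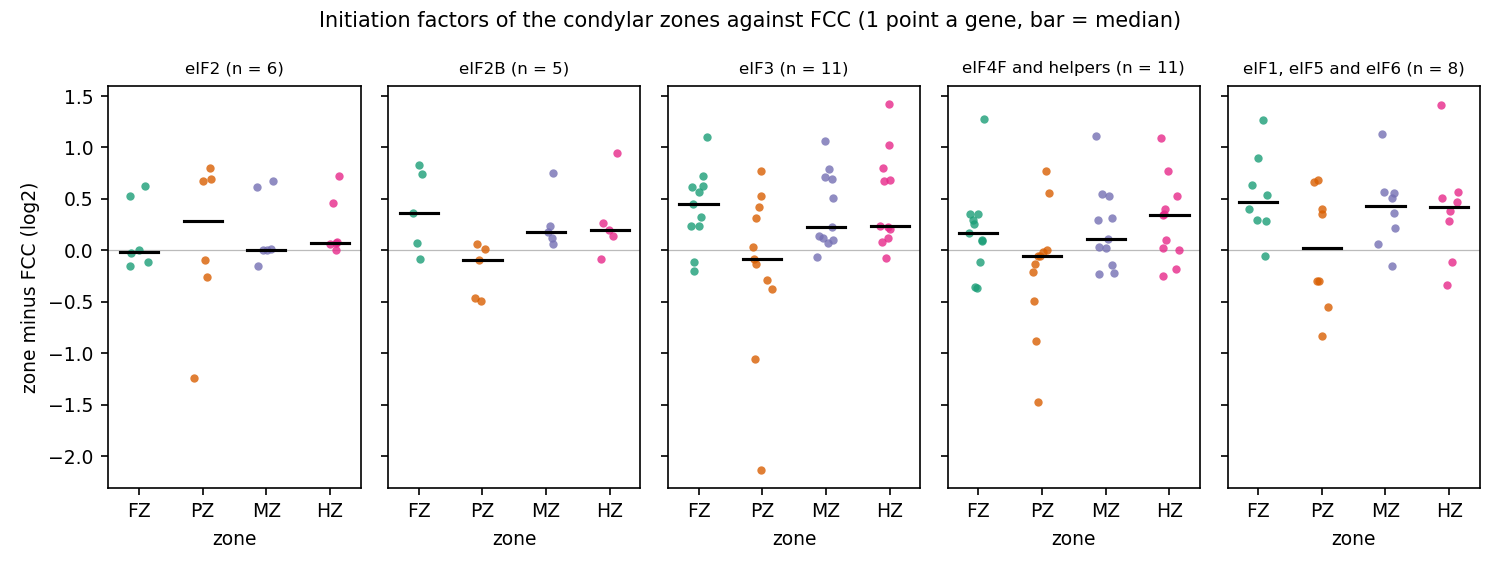
Difference of each MCC zone from FCC (y axis, log2) for the initiation factors, by complex (panels) and zone (x axis). Each point is 1 gene and each bar a median. Most eIF3 points lie above 0 in FZ, MZ and HZ, while PZ reaches down to −2.13 for Eif3m.

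The kinases that phosphorylate eIF2, each answering a different stress, differed from each other in their order across the arrays. Eif2ak3 (PERK), which senses unfolded protein in the endoplasmic reticulum, had 0.00 in FZ, −0.54 in PZ, 0.10 in MZ, −0.20 in HZ and 0.79 in FCC. Eif2ak4 (GCN2), which senses a lack of amino acids, had 0.69 in FCC and −0.25 to 0.04 in the MCC zones. Both were highest in FCC. Eif2ak1, the haem-regulated kinase known from red cell precursors, had −0.01 in FZ, −1.08 in PZ, 0.22 in MZ, 0.55 in HZ and −0.21 in FCC. Both of its probe sets were highest in HZ, at 0.26 and 0.84, but they read −1.92 and −0.24 in PZ. Eif2ak2 (PKR), which senses double-stranded RNA, also was highest in HZ, at 0.52. All 9 erythroid markers were at least 1 lower in FZ and PZ than in MZ and HZ (list median −1.67), beside 3.78% of all genes. Eif2ak1 differed by −0.93 in this comparison. Of 13 leukocyte markers 12 were at least 1 higher in HZ than in FCC, beside 8.09% of all genes. The part of blood cells in the Eif2ak1 values was not tested.

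Few members separated the superficial from the deep zones. For FZ and PZ against MZ and HZ, 3 of 107 were at least 1 lower and none was at least 1 higher, where 3.78% and 2.24% of all genes were. Of the 3, Eif3m and Rps15a are there through PZ, since their FZ, MZ and HZ values lay between −0.04 and 0.03. The third was Rpl3l, the form of Rpl3 known from striated muscle, with −0.15 in FZ, 0.00 in PZ, 0.88 in MZ, 1.66 in HZ and −1.22 in FCC. Its values rank HZ, MZ, PZ, FZ and FCC. Rpl3 itself, which lies near the peptidyl transferase centre, had 0.00, −0.44, 0.01, 0.02 and 0.04 in the order FZ, PZ, MZ, HZ and FCC. Of 12 skeletal muscle markers, none was at least 1 lower in FZ and PZ than in MZ and HZ, and 1 was higher. Against FCC, 5 of the 12 were at least 1 higher in MZ and 1 was lower, and in HZ 1 was higher and 2 were lower. Of all genes, 6.98% in MZ and 8.09% in HZ were higher than FCC, and 4.74% and 5.98% were lower. Rpl3l was 2.09 higher than FCC in MZ and 2.87 higher in HZ. The part of muscle in the Rpl3l values was not tested. Rpl3 has a pyrimidine run within 5 bases of its annotated start, whereas Rpl3l has runs only further from it.
Rpl3, chr7:113507976-113508005, minus strand: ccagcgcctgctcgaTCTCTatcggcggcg
Rpl3l, chr10:14258431-14258460, plus strand: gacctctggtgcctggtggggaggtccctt

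A second paralog had a like order. Rpl39l1, a relative of the small tunnel protein Rpl39, had −0.10 in FZ, 0.00 in PZ, 0.92 in MZ, 0.89 in HZ and −0.64 in FCC. Rpl39 had −0.11, −0.30, 0.18, 0.00 and 0.00 in the same order. Other paralogs went elsewhere. Rpl26l1 had 0.61 in FCC and −0.44 in HZ, and Rps27l, a relative of Rps27 induced by p53, had −0.60 in FCC and 0.22 in MZ. Rps4y2, a relative of Rps4x, had −0.70 in FCC, 0.43 in FZ and −0.92 in PZ. Rpl7l1, a relative of Rpl7 with a role in ribosome assembly, had −0.43 in FCC and −0.71 in PZ. All 6 paralogs had a range of at least 0.5 over FCC, FZ, MZ and HZ, where 54.6% of all genes had a range under 0.5. Of the 6, 4 were at least 0.5 higher than FCC in each of the other 3 and 1 was at least 0.5 lower, beside 11% and 7.48% of all genes. Each of Rpl3l, Rpl39l1, Rpl26l1, Rps27l and Rps4y2 rests on 1 probe set.

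Eif5a2, the second eIF5A gene, had the opposite order to Rpl3l among the zones. Its values were 0.84 in FZ, 0.60 in PZ, 0.00 in MZ, −0.39 in HZ and −0.06 in FCC. The difference between superficial and deep zones was 0.92, the highest of the members, and its 2 probe sets both were highest in FZ or PZ. One read 0.79 in FZ and 0.25 in PZ, and the other 0.89 and 0.96. Eif5a did not share this order.

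The member with the widest range was Eif4ebp2, an eIF4E-binding protein. It had −0.38 in FZ, 0.28 in PZ, 0.00 in MZ, 1.23 in HZ and −2.02 in FCC, a range of 3.25 between FCC and HZ. It was also the only member at least 1 apart between MZ and HZ, with −1.23, where 0.204% of all genes were at least 1 lower in MZ and 0.907% were higher. Eif4ebp1 spanned 0.16 over FCC, FZ, MZ and HZ. Over all 5 arrays, 4 of 107 members were at least 2 apart in some pair (Eif4ebp2, Rpl3l, Eif3m and Rps15a), against 6.68% of all genes. Eif4ebp2 rests on 1 probe set.

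**Figure D5:**
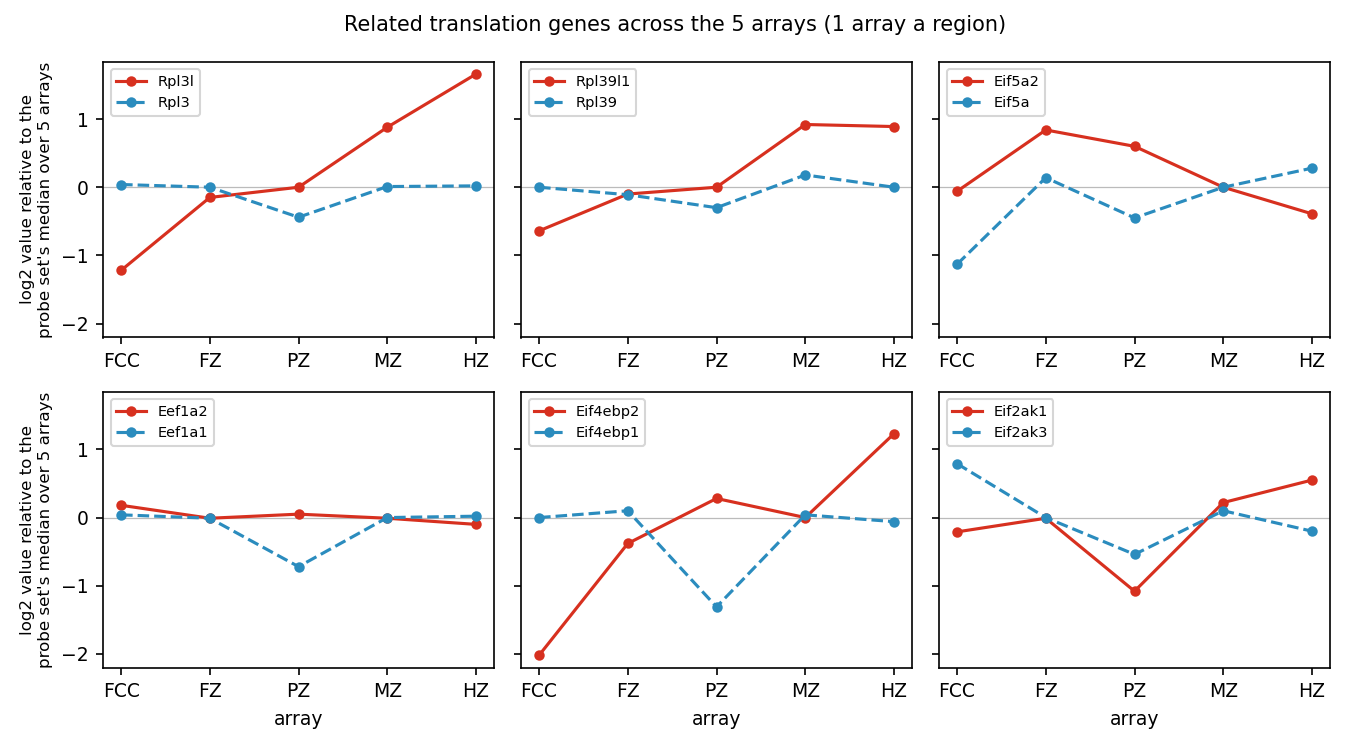
Log2 values relative to the median of 5 arrays (y axis) by array (x axis) for 6 pairs of related genes. Lines join values of a gene for reading only, and each array is 1 pooled sample. Rpl3l and Eif4ebp2 are lowest in FCC and highest in HZ, while Rpl3 and Eif4ebp1 are level outside PZ.

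Of the 4 genes for enzymes that modify elongation factors, none differed by at least 1 between PZ and the mean of the rest. Of all genes, 5.54% were lower and 1.31% were higher. Eef2k, the kinase that stops eEF2, had between −0.11 and 0.12 in all arrays as a mean of 4 probe sets, which read −0.64, −0.10, 0.43 and −0.06 in FCC. Eef1akmt1, a lysine methyltransferase of eEF1A, had 0.81 in FCC and −0.34 in PZ, and Eef1akmt4 ran the other way in FCC with −0.63. Eef1akmt2 stayed between −0.15 and 0.06.

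Other genes of protein synthesis were counted in the same way, by lists, beside 5.54% of all genes at least 1 lower in PZ. With PZ set against the average of the rest, none of 21 aminoacyl-tRNA synthetases and their partners was at least 1 lower (median −0.08), and Qars1, the glutaminyl-tRNA synthetase, was lowest with −0.96. Of 73 mitochondrial ribosomal proteins 8 were lower (median −0.15), and of 53 ribosome biogenesis genes 2 were, Imp3 and Utp4, with a median of 0.00. Of 14 termination, recycling and mRNA-binding factors, 2 were lower, the recycling factor Abce1 and the release factor Gspt1, both with −1.10, and the list median was −0.46. The largest difference among 6 further products of TOP mRNAs (list median −0.43) was that of Naca, a chaperone of nascent chains, with 0.14 in FZ, −2.20 in PZ, 0.00 in MZ, −0.03 in HZ and 0.09 in FCC. No gene of these lists was at least 1 higher in PZ, where 1.31% of all genes were.

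Of 12 genes of the integrated stress response, which follows eIF2 phosphorylation, 4 were at least 1 lower in PZ, with a list median of −0.26. Of all genes, 5.54% were lower. The 4 were Asns, Atf4, Atf5 and Nupr1, and Asns was low in FZ too, with −1.10 there and −1.30 in PZ. Atf4, the central transcription factor of this response, had 0.05 in FZ, −1.71 in PZ, −0.04 in MZ, 0.00 in HZ and 0.35 in FCC. Atf5 had 1.09 in FCC, −1.57 in PZ and −0.06 to 0.00 in the others. Cebpg ran the other way with a difference of 0.65. Of 13 genes of the mTOR pathway 2 were at least 1 lower in PZ, Deptor and Mknk2, and Mtor itself had −0.13 there. All 6 mitochondrial translation factors differed by less than 1, with a median of 0.19.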

How the data were processed

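Pooled sections of each group gave 1 Affymetrix rat genome array after 2 cycles of linear amplification. The authors ran RMA, that is quantile normalization and log2, and the deposited log2 values have the median of each probe set over 5 arrays subtracted, and the submitters' processing notes also name MAS5. For the genome build, nothing is given in the sources used here. The values hold no intensity, so depth and signal over background cannot be stated, and quantile normalization would hide a shift shared by most genes.

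From 31099 probe sets, 57 controls were set aside. The platform annotation gave 1 symbol for 20826, several for 436 and none for 9780. Of the 107 members, 105 had a gene ID in the RefSeq table, and Rpl37a and Rps9 kept the name in the annotation. Values of a gene were the mean of its probe sets, and 8 comparisons were computed in Python 3.11.15 with numpy 2.4.6 and pandas 2.3.3, with plots by matplotlib 3.10.9. With 1 array per group there is no test. The functions were tested on simulated data.

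The members, roles and gene lists were chosen with earlier results of these data known. Named genes were, for a comparison, the 12 members furthest above and the 12 furthest below 0, members at least 2 apart between any pair of arrays or whose probe sets differed by at least 2, the highest and lowest of each role, and pairs of paralogs. Further members and probe sets with several symbols were named after their values were seen, to account for a complex or a group. Lists of hypertrophy, osteoblast and osteoclast, and endothelial markers were also computed. In PZ against the other arrays they had 3 of 9, 1 of 7 and 2 of 7 genes at least 1 lower, beside 5.54% of all genes.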

Additional observations from a re-analysis of the deposited data

How the results depend on the processing

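The counts use a size of 1 on the log2 scale, and each rests on 1 array per group. At a size of 0.5, members higher and lower than FCC numbered 22 and 4 of 107 in HZ, 23 and 4 in MZ, 13 and 35 in PZ, and 21 and 5 in FZ. The shares of all genes higher and lower were 19.6% and 14% in HZ and 18.9% and 11.5% in MZ. They were 14.3% and 17.7% in PZ and 17.4% and 10.5% in FZ. Members higher and lower in PZ, set against the other 4 arrays, numbered 4 and 41, beside 7.21% and 16.6% of all genes. In FZ against PZ they were 43 and 4, beside 17.6% and 6.49%. In the superficial against the deep zones they were 1 and 24, beside 6.84% and 12.7%. In MZ against HZ 2 were lower, beside 1.98% of all genes. At a size of 2, members higher than FCC numbered 2 in HZ, 2 in MZ, 1 in PZ and 0 in FZ, and lower 2 in PZ and 0 in HZ. At that size 2 were lower in PZ than the other 4 arrays, 2 were higher in FZ than in PZ, 0 were lower in the superficial zones and 0 in MZ. Shifting the arrays to equal means of the 18 hybridization controls moved the median of all genes to 0.52 for HZ, 0.55 for MZ, 0.07 for PZ and 0.66 for FZ against FCC, to −0.36 for PZ against the other 4 arrays, to 0.59 for FZ against PZ and to −0.17 for superficial against deep zones. The members' medians moved with it, to 0.66 in FZ, 0.56 in MZ and 0.60 in HZ against FCC and to 1.0 for FZ against PZ. Members higher than FCC then numbered 25 in FZ, 23 in MZ and 23 in HZ, with 0 lower in HZ. In PZ 31 were lower than the other 4 arrays on average, 53 were higher in FZ than in PZ and 6 were lower in the superficial zones. Shares of all genes were not computed for these shifted counts or for the counts at a size of 2. The probe set with the largest SD in place of the mean gave 6 members lower in the superficial zones, and probe sets with a plain name ending left 1 higher in PZ than FCC. Chosen after seeing the data, FZ alone against MZ and HZ gave 1 member higher. In PZ, 22 were lower without FCC in the mean and 25 with the probe sets of several symbols added. Centring arrays on their medians and taking the median of probe sets moved no count by over 1.5 times, and no named difference of at least 1 in PZ changed sign under the settings run, though the difference of Rps24 was −0.03 with the plain name ending. No paired analysis was possible because each group has 1 array.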
